A study of Homo sapiens with 8 samples.

Results

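The genes described here are 34 genes of cholesterol and fatty acid synthesis and of the machinery that controls them, taken by symbol from the 23710 genes of the count tables. All 34 were in the tables, and all 34 were among the 12536 genes that passed the count filter. By role, 7 belong to the mevalonate pathway, 9 to squalene and sterol synthesis, 5 to the control of the SREBP transcription factors, 4 to sterol transport and efflux, and 9 to fatty acid synthesis. RNA was sequenced from 8 libraries of 1 human lymphoblastoid cell line, that is, B cells kept growing by Epstein-Barr virus. The 4 groups were control cells without chromium, cells at 24 h of treatment with 5 µM hexavalent chromium, and cells 3 and 7 days post treatment, all grown in RPMI medium with 2 replicates each. The treatment lasted 24 h per the labels, which count the days as post treatment, while the series text counts from the onset of exposure. Control cells were taken before exposure, so exposure and time in culture cannot be told apart. Because every library comes from the same line, p-values measure the spread between libraries of that line. The sample titles give a replicate number and do not say whether replicates were separate cultures.

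Cells make cholesterol and fatty acids from acetyl-CoA, and the sterol regulatory element-binding proteins (SREBPs) switch on most genes of both routes. When membrane sterol is low, the escort protein SCAP carries an SREBP from the endoplasmic reticulum to the Golgi, where it is cut to release its active part; when sterol is high, INSIG proteins hold the complex back. SREBP2, from SREBF2, acts mainly on the cholesterol genes and SREBP1, from SREBF1, mainly on the fatty acid genes, while an excess of sterol acts through the LXR receptors to raise the exporters ABCA1 and ABCG1. Dividing B cells need both routes to build membranes.

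Promoter letters of 6 genes are shown first because SREBPs bind DNA next to the factor NF-Y. SREBF2 differed little between libraries, and the other 5 were higher and lower in the same libraries within each group. The fatty acid genes are not shown, nor are PMVK, NSDHL and SCAP, which had the opposite order. Such an order compares single libraries and takes no account of counting error. NSDHL also had CCAAT in its window. In the windows of INSIG2, SREBF1 and CYP51A1, which kept the order of the 5 genes in every group, CCAAT was not found. A link between these letters and the levels was not tested. RefSeq windows (GRCh38.p14) matched 29 of the 34 genes. HMGCS1 had another window, not shown, in which CCAAT was not found. The 250 bases before each annotated start are given 5′ to 3′ on the gene's strand. Capitals mark the NF-Y box CCAAT on either strand and, in SREBF2, a longer run that is an exact form of the sterol regulatory element.
SREBF2, chr22:41832855-41833104, plus strand: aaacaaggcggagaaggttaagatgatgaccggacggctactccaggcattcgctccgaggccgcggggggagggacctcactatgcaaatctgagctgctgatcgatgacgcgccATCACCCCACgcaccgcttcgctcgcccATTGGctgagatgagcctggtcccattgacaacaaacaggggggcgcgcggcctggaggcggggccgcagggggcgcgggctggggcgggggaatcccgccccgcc
INSIG1, chr7:155297628-155297877, plus strand: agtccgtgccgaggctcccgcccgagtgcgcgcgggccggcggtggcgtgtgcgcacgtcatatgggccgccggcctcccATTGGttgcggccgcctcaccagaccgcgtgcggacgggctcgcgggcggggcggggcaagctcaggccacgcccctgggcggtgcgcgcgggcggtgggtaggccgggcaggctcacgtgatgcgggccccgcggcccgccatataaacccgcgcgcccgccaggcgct
HMGCS1, chr5:43313413-43313662, minus strand: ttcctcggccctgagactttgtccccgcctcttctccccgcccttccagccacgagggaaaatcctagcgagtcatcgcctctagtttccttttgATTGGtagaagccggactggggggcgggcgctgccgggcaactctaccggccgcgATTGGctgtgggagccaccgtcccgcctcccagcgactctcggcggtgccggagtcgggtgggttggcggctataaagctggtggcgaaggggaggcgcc
LSS, chr21:46228775-46229024, minus strand: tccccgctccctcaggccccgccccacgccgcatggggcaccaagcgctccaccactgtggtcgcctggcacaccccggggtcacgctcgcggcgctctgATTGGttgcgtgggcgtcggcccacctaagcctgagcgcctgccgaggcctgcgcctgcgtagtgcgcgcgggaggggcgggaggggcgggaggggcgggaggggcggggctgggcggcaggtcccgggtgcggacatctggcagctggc
STARD4, chr5:111512536-111512785, minus strand: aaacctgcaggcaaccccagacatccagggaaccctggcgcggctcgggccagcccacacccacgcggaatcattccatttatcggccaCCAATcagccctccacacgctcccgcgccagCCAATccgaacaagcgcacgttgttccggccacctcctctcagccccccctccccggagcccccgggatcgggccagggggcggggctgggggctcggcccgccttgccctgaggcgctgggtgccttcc
MVD, chr16:88663092-88663341, minus strand: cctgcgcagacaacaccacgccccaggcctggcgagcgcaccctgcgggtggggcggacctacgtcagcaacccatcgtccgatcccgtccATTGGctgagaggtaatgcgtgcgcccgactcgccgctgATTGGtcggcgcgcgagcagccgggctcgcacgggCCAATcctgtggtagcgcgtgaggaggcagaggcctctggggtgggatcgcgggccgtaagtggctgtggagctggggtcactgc
Searched on both strands over windows of 250 bases before to 50 after the start, the element in capitals in SREBF2 was found in 1 of 41 windows of these genes, against 0.0456% of all 35116 windows. That window was the one of SREBF2, with the first base of the element at -134 and an NF-Y box at -106, where -1 is the base before the start. CCAAT was in 22 of the 41 windows (53.7%) against 34.6% of all windows, and the GC box GGGCGG in 36 (87.8%) against 45.0%. The palindromic E-box CACGTG was in 4 (9.76%) against 7.26%. These are matches of exact letters only. Variant forms of the element were not searched, so a window without a match may still hold one. No match of a motif overlapped a match of another in these windows.

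The libraries held 9478459 to 11110830 gene counts, with 14963 to 15828 genes detected and 32593 to 58174 counts on the 34 genes. B cell markers were abundant (11 of 12 reached 10 CPM, with a median of 42.2 to 84.0 CPM by library), where CPM is a library's counts scaled to a common total after adjustment for composition. No marker of T and NK cells (0 of 10), myeloid cells (0 of 10), hepatocytes and adipocytes (0 of 11) or stromal and epithelial cells (0 of 12) reached 10 CPM in any library, and their summed levels stayed at or below 16.0 CPM. CD3D, CD3G and CD8A were at 0 in every library. In such bulk RNA, fewer cells of a kind and less RNA per cell cannot be told apart.

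The 34 genes differed more between the 2 libraries of a group than between groups. Their summed level was 4226 and 5644 CPM in control replicates 1 and 2, 5847 and 4150 at 24 h, 3644 and 5149 at 3 days, and 3600 and 5036 at 7 days. Every group thus held a higher and a lower library, with ratios of 1.34, 1.41, 1.41 and 1.40. The summed level of the 12 B cell markers had the same order in every group. It was 2118 and 2718 CPM (control), 2910 and 2107 (24 h), 1585 and 2255 (3 days) and 1645 and 2124 (7 days). MS4A1 gave 1142 and 1518 CPM of the control sums. Not every marker followed: CD79A stood at 123 and 113 CPM in control, 104 and 114 at 24 h, 205 and 125 at 3 days, and 175 and 114 at 7 days, opposite in every group. The order of the sums was thus not confined to the lipid genes. The part of the marker genes' difference in the levels of the lipid genes was not tested. The higher library was replicate 1 at 24 h and replicate 2 in the other 3 groups. As means ± SD (n = 2), the sum was 4935 ± 1002 CPM for control cells and 4999 ± 1200 at 24 h, then 4397 ± 1065 and 4318 ± 1015 on days 3 and 7, closer to each other than the 2 libraries of any group.

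**Figure D1:**
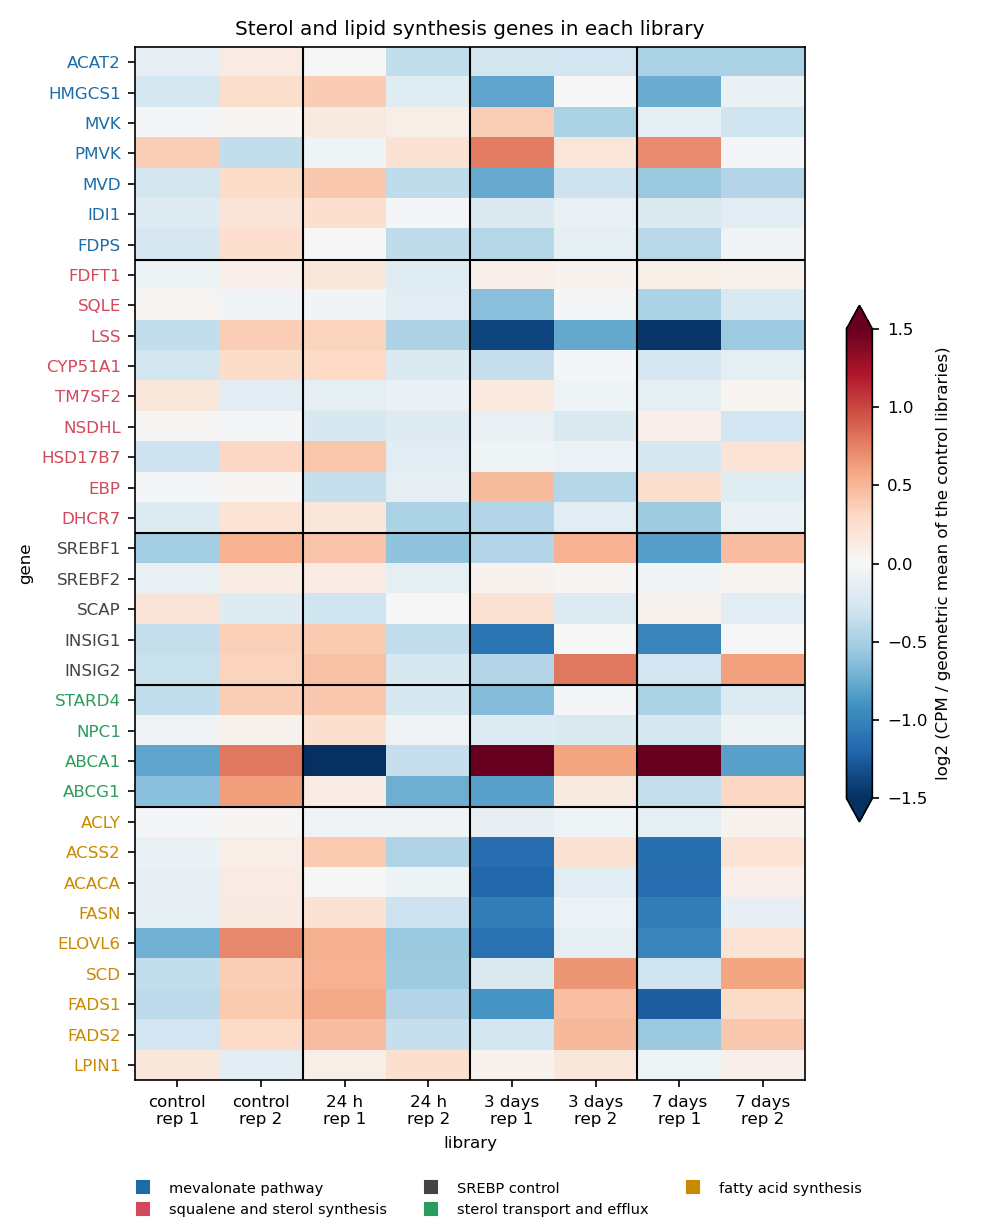
Level of each gene (rows, coloured by role) in each library (columns), as the log2 ratio of its CPM to the geometric mean of the control libraries; colours end at 1.5 in either direction and black lines separate groups and roles. The median over genes is -0.20 and 0.20 for control replicates 1 and 2, then 0.19 and -0.22 at 24 h; both later groups lie below 0, at -0.31 and -0.046 on day 3 and -0.32 and -0.031 on day 7, with replicate 1 the bluer.

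The control genes come first. INSIG1, a retention protein whose gene is itself an SREBP target, stood at 470.0 and 772 CPM in the control libraries, 789.7 and 467 at 24 h, 282 and 605 at 3 days, and 304 and 606 at 7 days (replicates 1 and 2). Replicate 2 over replicate 1 was 0.592 at 24 h (95% exact interval for counting error only, 0.571 to 0.613), but 1.64 for control (1.59 to 1.70), 2.15 on day 3 (2.05 to 2.24) and 1.99 on day 7 (1.91 to 2.09). All 4 intervals lie away from 1, and the ranges of the groups overlap.

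INSIG2, the second retention protein, followed the same order, at 85.6 and 137 CPM in control, 147 and 91.7 at 24 h, 79.4 and 187 at 3 days, and 88.9 and 166 at 7 days. Unlike INSIG1 it was higher in the later replicate 2 libraries than in any earlier library. SREBF1 stood at 14.6 and 30.2 CPM in control, 28.2 and 13.9 at 24 h, 15.5 and 30.1 at 3 days, and 11.8 and 28.9 at 7 days. Each group held 1 library between 11.8 and 15.5 and 1 between 28.2 and 30.2.

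SREBF2 and SCAP differed less. SREBF2 stood at 212 and 248 CPM in control, 249.6 and 207 at 24 h, 238 and 232 at 3 days, and 220.3 and 236 at 7 days, and its highest library was 1.21 times its lowest. SCAP ran opposite to INSIG1 in every group. It stood at 45.6 and 35.0 CPM in control, 32.5 and 39.8 at 24 h, 46.7 and 34.5 at 3 days, and 41.5 and 35.8 at 7 days. The same ratio of highest to lowest library was 1.44 for SCAP, 2.80 for INSIG1, 2.35 for INSIG2 and 2.56 for SREBF1.

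Among the mevalonate genes, HMGCS1, which makes HMG-CoA, stood at 385 and 558 CPM in control, 606 and 408 at 24 h, 269 and 466 at 3 days, and 277 and 434 at 7 days. MVD, the decarboxylase that forms isopentenyl diphosphate, stood at 9.49 and 13.9 CPM in control, 15.2 and 8.83 at 24 h, 6.78 and 9.28 at 3 days, and 7.84 and 8.44 at 7 days. IDI1, the isomerase of that product, stood at 277 and 361 CPM in control, 376 and 310.0 at 24 h, 272 and 292 at 3 days, and 271 and 281 at 7 days. For all 3, the earlier groups were wide, and the 4 later libraries reached no higher than the middle of the earlier range.

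ACAT2, the cytosolic thiolase that joins acetyl-CoA units, stood at 105 and 125 CPM in control, 114 and 88.6 at 24 h, 94.1 and 93.8 at 3 days, and 82.2 and 82.1 at 7 days. Both libraries agreed closely at each later time, and both lay below both controls. In GENCODE release 29, 34.8% of the exon bases of ACAT2 are shared with SOD2 and 12.5% with TCP1 on the opposite strand, and without a stated strand setting reads of such genes cannot be told apart. FDPS, farnesyl diphosphate synthase, ranged from 139 to 222 CPM and shares 28.9% of its exon bases with RUSC1-AS1; it also has near-identical pseudogene copies, so its level is uncertain.

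PMVK, phosphomevalonate kinase, stood at 18.7 and 11.3 CPM in control, 13.9 and 16.9 at 24 h, 24.7 and 16.5 at 3 days, and 23.7 and 14.4 at 7 days. It was lower in each library where INSIG1 was higher within its group, at 24 h within counting error (interval 0.973 to 1.53). MVK, mevalonate kinase, ranged from 4.46 to 8.02 CPM and had that opposite order at 3 and 7 days only.

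In the sterol branch, lanosterol synthase LSS, which closes squalene epoxide into the first sterol, had the widest range. It stood at 74.0 and 124 CPM in control, 121 and 69.6 at 24 h, 37.0 and 56.3 at 3 days, and 34.8 and 65.8 at 7 days. The highest of the 4 later libraries lay just under the lowest of the 4 earlier ones, and within each group LSS kept the order of INSIG1.

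SQLE, squalene epoxidase, stood at 154 and 147 CPM in control, 146 and 135 at 24 h, 97.8 and 149 at 3 days, and 108 and 129 at 7 days. Its earlier libraries lay close together, and at the later times replicate 1 was the lower. FDFT1, squalene synthase, was the steadiest of the abundant sterol genes, with 299 to 381 CPM over all 8 libraries. Further down the branch, CYP51A1, the lanosterol demethylase, ranged from 198 to 309 CPM, and DHCR7, which makes the last double-bond reduction to cholesterol, from 32.2 to 53.4; both kept the order of INSIG1 in all 4 groups.

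The remaining sterol enzymes were low. HSD17B7 ranged from 21.6 to 35.7 CPM and has a near-identical pseudogene, so its level is uncertain. NSDHL ranged from 14.3 to 18.3, EBP from 10.2 to 19.0 and TM7SF2 from 6.45 to 8.17. HSD17B7 had the order of INSIG1 in 3 of the 4 groups, and NSDHL the opposite order in all 4. For NSDHL, the interval for counting error included 1 in control (0.792 to 1.21), at 24 h (0.826 to 1.31) and at 3 days (0.743 to 1.16). At 7 days it was 0.618 to 0.980.

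Among transport genes, STARD4, a cytosolic sterol carrier and SREBP target, stood at 132 and 218 CPM in control, 225 and 144 at 24 h, 108 and 166 at 3 days, and 122 and 147 at 7 days. NPC1, which lets cholesterol out of the lysosome, stood at 116 and 125 CPM in control, 142 and 116 at 24 h, 105 and 104 at 3 days, and 101 and 114 at 7 days. STARD4 differed between the libraries of every group, whereas NPC1 varied less and had all 4 later libraries below all 4 earlier ones.

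The exporters were near the floor. ABCA1 had 7 and 18 counts in control, 3 and 9 at 24 h, 47 and 18 at 3 days, and 29 and 6 at 7 days, which is 0.302 to 4.83 CPM. Its highest libraries were the later replicate 1 libraries, where INSIG1 was lowest, and at such counts single libraries carry little precision. ABCG1 ranged from 1.85 to 5.02 CPM and kept the order of INSIG1 in all 4 groups, at 7 days within counting error (interval 0.925 to 2.77).

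The summed level of the fatty acid genes in replicate 2 was 1.59 times that in replicate 1 at 3 days and 1.66 times at 7 days, beside 1.64 and 1.61 for the control genes. FASN, fatty acid synthase, stood at 167 and 200.2 CPM in control, 212 and 148 at 24 h, 88.8 and 172 at 3 days, and 88.8 and 167 at 7 days. ACACA, acetyl-CoA carboxylase 1, which supplies malonyl-CoA, stood at 128 and 153 CPM in control, 141 and 132 at 24 h, 62.0 and 126 at 3 days, and 63.4 and 147 at 7 days. For both, the 2 later replicate 1 libraries stood below every other library, and the later replicate 2 libraries stood inside or close to the earlier range. Those 2 libraries also stood apart in other measures: their 20 most abundant genes took 12.5% of counts (8.88% to 9.65% elsewhere), ambiguous reads were 1.05% and 1.1% (0.608% to 0.781% elsewhere), and their scaling factors were 0.936 and 0.912 (1.00 to 1.05 elsewhere). The part of these measures in the levels was not tested.

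FADS1, the delta-5 desaturase, ranged from 52.9 to 185 CPM, and its ratio of replicate 2 to replicate 1 was 0.497 at 24 h, against 1.72 (control), 2.52 (3 days) and 2.84 (7 days). ELOVL6, which lengthens palmitate, ranged from 11.3 to 40.4 CPM, and SCD, the stearoyl-CoA desaturase, from 324 to 742. FADS2, the delta-6 desaturase, ranged from 53.2 to 109 CPM and ACSS2, which activates acetate, from 4.93 to 14.4. All 5 kept the order of INSIG1 in every group. FADS1 and FADS2 share 1.8% of the exon bases of FADS1 on opposite strands.

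ACLY and LPIN1 varied little. ACLY, which makes cytosolic acetyl-CoA from citrate, ranged from 265 to 303 CPM, with the highest library 1.14 times the lowest, the narrowest range of the 34 genes. LPIN1, a phosphatidate phosphatase, ranged from 159 to 210.1 CPM.

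**Figure D2:**
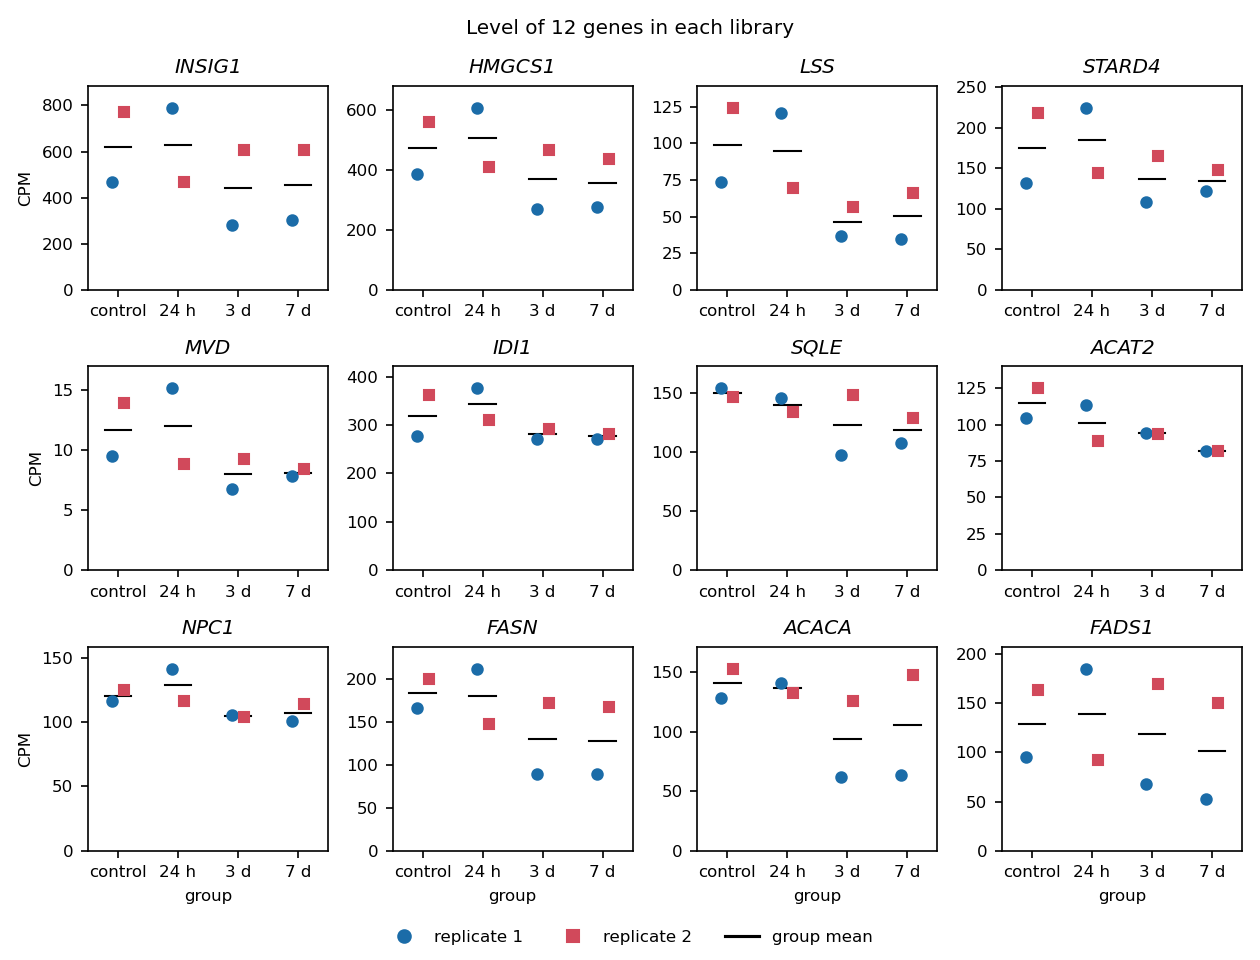
CPM of 12 of the genes (vertical axes from 0) in each library by group, with circles for replicate 1, squares for replicate 2 and a line at the group mean. The replicates of control and of 24 h lie in opposite order for most genes, and LSS has all 4 later libraries below all 4 earlier ones.

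Counted over the 34 genes, replicate 2 was higher than replicate 1 for 28 genes in control cells, 22 on day 3 and 26 on day 7, but for 7 at 24 h. Of all 12536 genes, 48.5% (control), 50.7% (3 days), 49.8% (7 days) and 50.7% (24 h) were higher. In control, 23 of the 34 were higher and 3 lower beyond counting error (95% exact interval of the ratio away from 1), against 23.1% and 23.4% of all genes. At 24 h, 2 were higher and 24 lower, against 25% and 24.7%. At 3 days, 20 were higher and 5 lower, against 33.1% each way, and at 7 days 22 were higher and 5 lower, against 31.4% and 32.1%. These compare single libraries, not conditions. Among fatty acid genes, 9 of 9 were higher in replicate 2 at 3 days and 9 of 9 at 7 days.

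The median size of the difference between replicates over the 34 genes was 0.45 on the log2 scale in control and 0.52 at 24 h, against 0.26 and 0.28 over all genes. At 3 and 7 days it was 0.60 and 0.42, against 0.49 and 0.47. The excess over genes at large was thus in control, at 24 h and, less, at 3 days, and not at 7 days. The closest libraries over these genes were of different groups: control replicate 2 and 24 h replicate 1 (median difference 0.11), 3 and 7 day replicate 2 (0.11), control replicate 1 and 24 h replicate 2 (0.11), and 3 and 7 day replicate 1 (0.12).

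**Figure D3:**
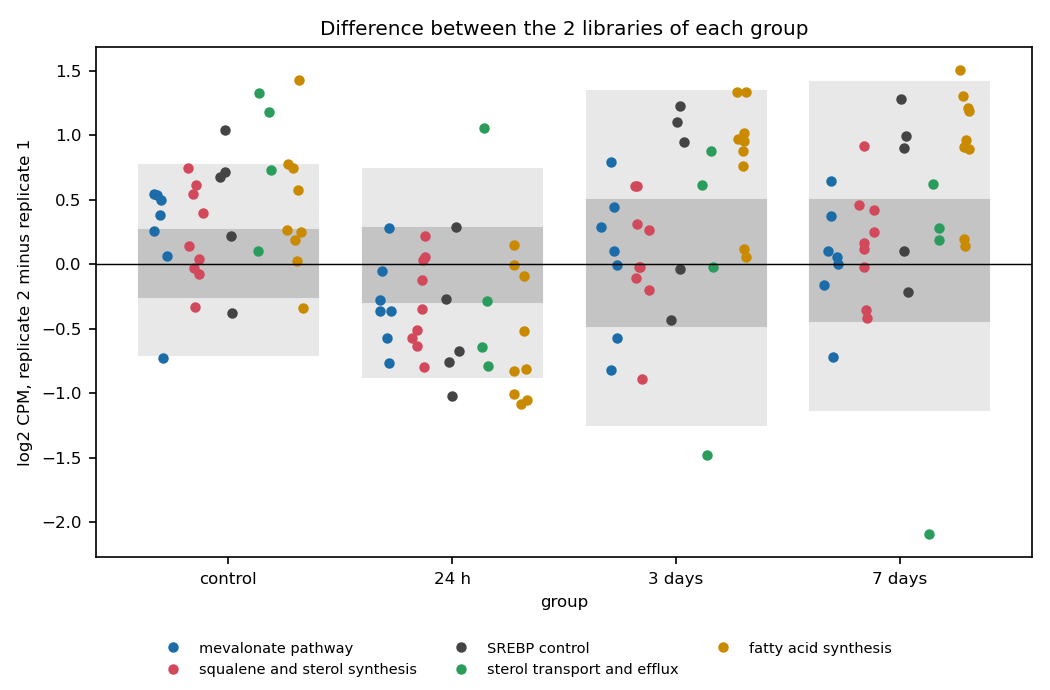
Replicate 2 minus replicate 1 in log2 CPM for each of the 34 genes (points, coloured by role) in each group, over the middle 50% (dark grey) and the middle 90% (light grey) of all 12536 genes. Most points lie above 0 in control, at 3 days and at 7 days and below 0 at 24 h, and the lowest points at 3 and 7 days are ABCA1.

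Across the 34 genes, the replicate difference of control and that of 24 h had a Pearson correlation of -0.52, or -0.89 over 33 genes without ABCA1. The correlation was 0.92 between 3 and 7 days and -0.84 between 24 h and 3 days. Over all 12536 genes the same values were -0.60, 0.81 and -0.32. These are descriptions over genes, which share their library, its depth and its composition; the 2 differences in each pair come from separate libraries.

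The order within groups ran with a measure of the libraries. Reads counted under no feature were 44.4% and 47.5% of the table in control, 51.5% and 46.4% at 24 h, 39.4% and 46.1% at 3 days, and 36.5% and 45.3% at 7 days (replicates 1 and 2). In all 4 groups the library with more such reads had the higher summed level of the 34 genes. By gene, 20 of the 34 were higher in that library in all 4 groups and 3 (PMVK, NSDHL and SCAP) were lower in all 4, against 22.1% and 22.1% of all genes. These orders take no account of counting error. Its interval for the ratio included 1 in some group for ACLY, MVD, IDI1, ABCG1, ACSS2 and ACACA among the former, and for PMVK and NSDHL among the latter. What part unassigned reads have in the levels was not tested.

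**Figure D4:**
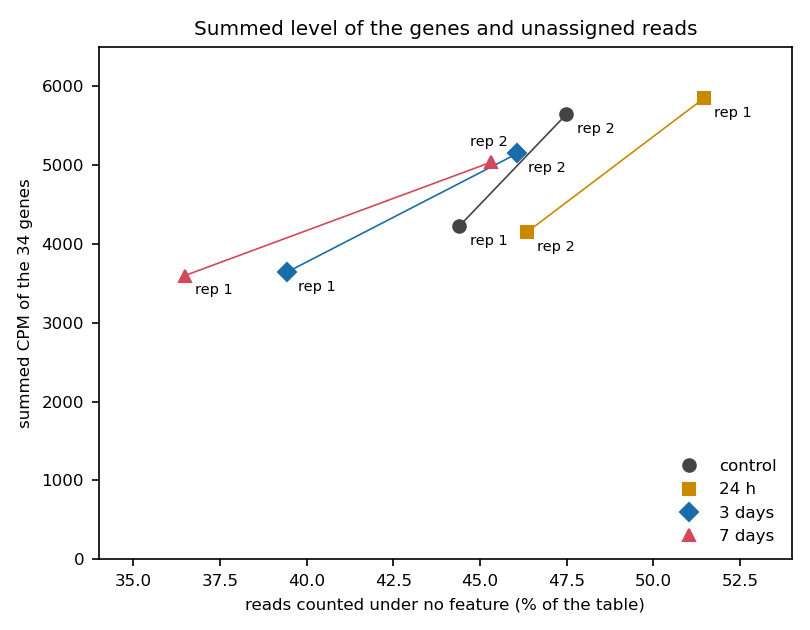
Summed CPM of the 34 genes (vertical axis, from 0) against the share of reads counted under no feature (horizontal axis) in each library, with a line joining the 2 libraries of a group. Every line rises to the right, and the 3 and 7 day replicate 1 libraries have the lowest values on both axes.

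The first comparison sets 24 h of exposure against unexposed cells. No common direction was seen among the 34 genes: 17 had a higher and 17 a lower mean, with a median log2 fold change of -0.00, beside 0.00 over all genes. INSIG1 was at 629 ± 228 CPM against 621 ± 214, HMGCS1 at 507 ± 139.8 against 472 ± 122, and FASN at 179.9 ± 45.3 against 183 ± 23.7 (SD, n = 2). None of the 34 passed an adjusted p of 0.05 in edgeR, where 0% of all genes did, and 0 had an unadjusted p under 0.05, where 0.175% did (0.0877% in each direction); DESeq2 and limma-voom also called 0. The smallest unadjusted p was 0.337, for ABCA1. SQLE, NSDHL, EBP and ACLY had both 24 h libraries below both controls, a count of 4 beside 12.5% of all genes, and MVK had both above, beside 11.4%. With this spread inside each group, these values do not show the groups to be alike.

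At 3 days, 21 of the 34 genes had a lower mean than in control, and none passed the test. LSS stood at 46.7 ± 13.6 CPM against 99.1 ± 35.6, a log2 fold change of -1.09 ± 0.43 (SE), with adjusted p = 0.843 in edgeR's quasi-likelihood test with Benjamini-Hochberg adjustment. The count of 21 (26 with upper-quartile scaling) stands beside 48.8% of all genes with a lower mean, and the median was -0.17, beside 0.01 over all genes. That median ran from -0.37 without control replicate 1 to -0.0043 without control replicate 2. None of the 34 passed after adjustment, beside 0% of all genes in edgeR, and DESeq2 and limma-voom also called 0 of them. LSS was the 1 gene with an unadjusted p under 0.05, beside 5.29% of all genes, 3.13% in that direction. Neither library reached the lower control for 7 of the 34, beside 17.2% of all genes, namely ACAT2, MVD, LSS, NSDHL, NPC1, ACLY and ACACA. Both libraries lay above both controls for 0 of the 34, beside 16.7% of all genes. By median, mevalonate genes were at -0.29, sterol genes at -0.17, transport genes at -0.28, fatty acid genes at -0.12 and control genes at 0.03. Without 3 day replicate 1, 0 genes had an unadjusted p under 0.05, as without control replicate 2, and without 3 day replicate 2 there were 4; the fold change of LSS was then -0.81, -0.67 and -1.42.

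At 7 days, 28 of the 34 were lower than in control, beside 49.9% of all genes, with a median of -0.19, beside 0.00. That median ran from -0.38 without 7 day replicate 2 to -0.014 without control replicate 2. LSS stood at 50.3 ± 22 CPM (-0.98 ± 0.43) and ACAT2 at 82.1 ± 0.0385 CPM against 115 ± 14.4 (-0.48 ± 0.21), each with adjusted p = 0.851 in edgeR. No gene had an unadjusted p under 0.05, beside 4.94% of all genes (3.09% lower), and none passed after adjustment, beside 0%; DESeq2 and limma-voom called 0 of the 34. Both values were under the lower control value for 6 genes (ACAT2, MVK, MVD, SQLE, LSS and NPC1), beside 17.9%. They were above the higher control value for 0 genes, beside 16.6%. The 3 and 7 day comparisons share the control libraries. Without 7 day replicate 1 the fold change of LSS was -0.59, and without control replicate 2 it was -0.56.

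Between 3 and 7 days the differences were small. The median was -0.03, beside -0.00 over all genes, 13 were higher and 21 lower, beside 50.4% of all genes lower, and the smallest unadjusted p in edgeR was 0.386. ACAT2, at 82.1 against 94.0 CPM, was the 1 gene with both 7 day libraries below both 3 day libraries, beside 6.41% of all genes, and 0 had both above, beside 5.24%. No gene of the 34 had an adjusted p or an unadjusted p under 0.05, beside 0% and 0.247% (0.152% lower and 0.0957% higher); DESeq2 and limma-voom called 0.

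Setting the 4 later libraries against the 4 earlier ones used every library, and the fit took them as independent. Over the 34 genes, however, 3 and 7 day libraries of the same number lay close (median difference 0.12 for replicate 1, 0.11 for replicate 2). Control replicate 2 and 24 h replicate 1 did so too (0.11). The SE and p of this comparison, also for the lists below, may thus understate the spread. LSS, at 48.5 ± 15.1 CPM against 97.1 ± 29.4 (SD, n = 4), had the lowest fitted value of the 34, -1.0 ± 0.30 (SE, adjusted p = 0.269 in edgeR). It was the 1 of the 34 with an unadjusted p under 0.05, beside 7.24% of all genes in that direction and 6.94% in the other, and 0 of the 34 passed after adjustment, beside 0.00798%. Lower means were seen for 24 of the 34, beside 49.5% of all genes, with a median of -0.17, beside 0.01. The later libraries lay wholly below the earlier ones for LSS and NPC1, a count of 2 beside 7.43%, and wholly above for 0, beside 5.93%. The share of the 34 that was separated or had a small p was at or below the background, so the count is no result about them.

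The adjusted p of LSS was 0.0579 in DESeq2, 0.282 in limma-voom and 0.0171 when no count filter was used, so the call was made in the last of these only; over all alternatives it ranged from 0.0171 to 0.763. Without replicate 1 at both later times its fold change was -0.67. The next smallest were those of ABCA1 (1.54 ± 0.69, adjusted p = 0.359) and MVD (-0.55 ± 0.26, adjusted p = 0.365). Then came ACAT2 (-0.29 ± 0.15), FASN (-0.49 ± 0.28), STARD4 (-0.40 ± 0.24), HMGCS1 (-0.44 ± 0.26) and NPC1 (-0.23 ± 0.14). IDI1 was at -0.25 ± 0.16, ACACA at -0.48 ± 0.31, SQLE at -0.27 ± 0.17 and PMVK at 0.38 ± 0.26. Most of these values shrank without replicate 1 at both later times, to 0.24 for ABCA1, -0.095 for FASN, -0.12 for HMGCS1, -0.20 for STARD4, -0.024 for ACACA, -0.067 for SQLE and 0.021 for PMVK. MVD (-0.41), ACAT2 (-0.29), NPC1 (-0.19) and IDI1 (-0.20) moved less. With a single library left out, ABCA1 was at 0.73 without 7 day replicate 1 and ACACA at -0.24 without the same library, and without 3 day replicate 1 FASN was at -0.29, HMGCS1 at -0.26 and SQLE at -0.13.

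The control genes gave no common direction. INSIG1 was at -0.48 ± 0.35, INSIG2 at 0.18 ± 0.34, SREBF1 at -0.01 ± 0.41, SREBF2 at 0.02 ± 0.14 and SCAP at 0.05 ± 0.18. INSIG1 ranged from -0.80 without 3 day replicate 2 to -0.25 without 3 day replicate 1, and was at -0.041 without replicate 1 at both later times. The signs of SREBF1, SREBF2, SCAP and INSIG2 turned when single libraries were left out, and that of SREBF2 also with upper-quartile scaling and with the stricter filter. By median, the roles were at -0.25 (mevalonate), -0.14 (sterol), 0.02 (control), -0.14 (transport) and -0.28 (fatty acid).

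**Figure D5:**
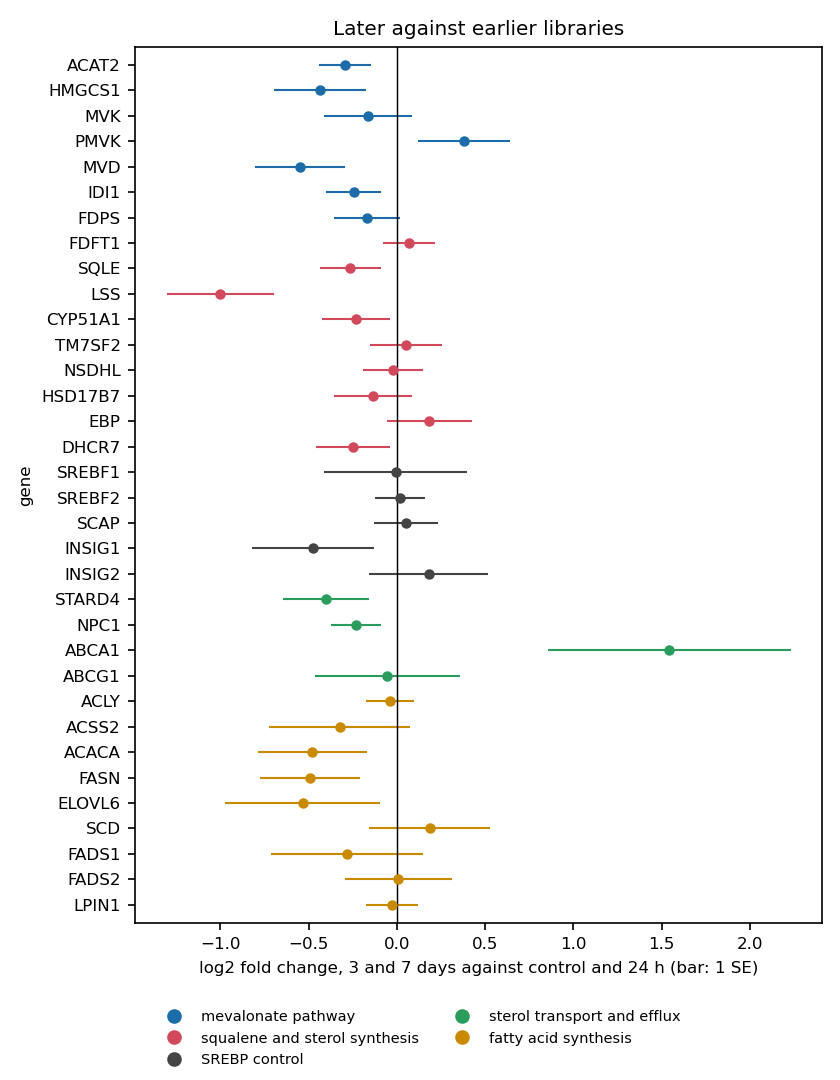
Fitted log2 fold change (horizontal axis, with 1 SE) of the 4 libraries at 3 and 7 days against the 4 control and 24 h libraries for each of the 34 genes, coloured by role. LSS lies farthest below 0 at -1.0, ABCA1 farthest above at 1.54 with the widest bar in this plot.

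Neighbouring genes of the pathway, from lists chosen for it, are given for the later against the earlier libraries, and none passed after adjustment in edgeR. Of 5 further enzymes of the mevalonate and sterol routes, 3 were higher and 2 lower at the later times (median 0.01), and 0 had an unadjusted p under 0.05, beside 14.2% of all genes. MSMO1, the sterol C4-methyl oxidase, stood at 306 and 433 CPM in control, 487 and 339.6 at 24 h, 252 and 362 at 3 days, and 286 and 324 at 7 days. It kept the order of INSIG1 in every group. Of 14 tested genes that lead mevalonate products into prenylation, dolichol and ubiquinone, 9 were higher and 5 lower (median 0.07), with 0 at an unadjusted p under 0.05; GGPS1 is in this list and the one before.

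Among 11 tested genes of SREBP cleavage and sterol sensing, 4 were higher and 7 lower (median -0.06). All 8 tested genes in a list of LXR receptors and targets had higher means at the later times, beside 49.5% of all genes with lower ones. The list leaves out ABCA1 and ABCG1. Its median was 0.16, and 0 had an unadjusted p under 0.05, beside 14.2% of all genes. ABCG1 itself was at -0.06. NR1H2, which encodes LXR beta, was at 0.27 ± 0.18. It stood at 33.6 and 33.9 CPM in replicate 1 at 3 and 7 days, but at 28.6 and 24.6 in replicate 2. RXRA stood at 21.2 and 20.1 CPM in those replicate 1 libraries and at 13.2 and 15.6 in replicate 2. How far the means of the list rest on the later replicate 1 libraries was not tested.

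Of 15 tested genes of sterol uptake, transport and esterification, 9 were higher and 6 lower (median 0.06), with 1 in each direction at an unadjusted p under 0.05, beside 6.94% of all genes higher and 7.24% lower. SCARB1, the receptor for high-density lipoprotein, stood at 67.1 and 67.8 CPM in control, 85.1 and 67.2 at 24 h, 49.1 and 56.8 at 3 days, and 44.6 and 63.8 at 7 days (-0.42 ± 0.17, adjusted p = 0.342). All 4 later libraries lay below all 4 earlier ones. Of 6 oxysterol enzymes only CYP7B1 and HSD3B7 passed the count filter. CYP7B1, the oxysterol 7-alpha-hydroxylase, stood at 31.5 and 45.1 CPM in control, 48.9 and 39.4 at 24 h, 12.4 and 25.9 at 3 days, and 9.72 and 21.8 at 7 days (-1.24 ± 0.33, adjusted p = 0.233). It too had the later libraries wholly below the earlier ones.

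Of 20 tested genes of fatty acid elongation, desaturation and activation, 12 were higher and 8 lower (median 0.06), with 3 lower at an unadjusted p under 0.05, beside 7.24% of all genes. PTPLA (HACD1), a dehydratase of the elongation cycle, had the smallest p, at 6.52 ± 2.29 CPM early and 3.23 ± 0.67 late (-1.0 ± 0.33, adjusted p = 0.291). Of 9 genes that supply acetyl-CoA and NADPH, 6 were higher and 3 lower (median 0.18). ME1, cytosolic malic enzyme, stood at 12.5 and 25.2 CPM in control, 27.2 and 17.3 at 24 h, 8.74 and 12.7 at 3 days, and 7.84 and 14.2 at 7 days (-0.91 ± 0.32, adjusted p = 0.306). It kept the order of INSIG1 in all 4 groups.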

How the data were processed

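Each library has 1 deposited table of raw read counts by gene symbol; replicates were kept apart by the authors. The submitters' processing notes name the builds GRCh37 and hg19 and the tools R 3.2.3, DESeq2 1.8.1, SAMtools, Bowtie2 and Trim Galore. For the counting tool, strand setting and annotation, the sources used here give nothing. The 5 summary entries that name no gene (42.6% to 57.5% of a table) were left out of library sizes. Genes were filtered with filterByExpr of edgeR 4.0.16 (minimum count 10, minimum total 15) and scaled with TMM. A quasi-likelihood model over all 8 libraries had 1 term for each group, with 4 residual and 4.09 prior degrees of freedom, and p-values were adjusted (Benjamini-Hochberg) over 12536 genes in each of 5 comparisons. Log2 CPM used a prior count of 2. The procedure was tested on simulated data. Alternatives were other scalings, DESeq2 1.42.0, limma-voom (limma 3.58.1), other filters, a replicate block, the compared groups alone and libraries left out.

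The genes and lists were chosen with earlier results of these data known. By rule, every gene is named with its level, the 12 with the smallest p in any comparison and the 5 control genes have values in every library, and a list may name its 2 genes of smallest p. The ratios of FADS1 were added after its values were seen. Older symbols were matched through RefSeq synonyms. GENCODE release 29, on another build, served only to find overlapping genes.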

Additional observations from a re-analysis of the deposited data

How the results depend on the processing

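No gene of the 34 was called under any setting, except LSS at the later against the earlier times with no count filter (1 gene). With single libraries left out, the median of the 34 ran from -0.26 (without 24 h replicate 1) to 0.19 at 24 h, from -0.37 to -0.0043 at 3 days, from -0.38 to -0.014 at 7 days, from -0.16 to 0.18 for 7 against 3 days and from -0.27 to -0.070 for later against earlier; the SD between replicates of a median was 0.245. With single libraries left out, the number at an unadjusted p under 0.05 ranged from 0 to 4 at 3 days, 0 to 3 at 7 days and 1 to 8 for later against earlier libraries, and the genes called among all genes in the last from 0 to 0. Without replicate 1 at 3 and 7 days together these were 0 genes at 3 days, and 0 genes of the 34 and 0 of all genes for later against earlier. At 7 days the number at an unadjusted p under 0.05 was 2 with upper-quartile scaling and 1 each with DESeq2, limma-voom, no filter, the stricter filter, the replicate block and the 2 groups alone, against 0. For later against earlier it was 2 with DESeq2, 3 with no filter and 2 with the replicate block, against 1. Among all genes, DESeq2 called 9, 15 and 276 at 3 days, at 7 days and for later against earlier, and the fit with no filter 11, 16 and 489, against 0, 0 and 1; the cause was not tested.

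The replicate block over all 8 libraries changed no call: the number called was 0 of the 34 in each comparison. The labels do not say that a number marks a shared culture. Replicate differences over all genes correlated at 0.81 between 3 and 7 days and at -0.60 between control and 24 h, so same-numbered libraries deviated together in the former and not in the latter. An added block fit of the 3 and 7 day libraries alone, chosen after seeing the data, called 9 genes of all and 0 of the 34, with 2 of the 34 at an unadjusted p under 0.05. A block fit of control and 24 h alone with crossed numbers, likewise chosen after seeing the data, called 216 genes. Of the 34, 0 were among them and 2 had an unadjusted p under 0.05 in edgeR. With the numbers as labelled, the same libraries gave 0 genes called. Because the crossing was taken from these same libraries, the 216 calls cannot show whether numbers were crossed. For later against earlier libraries, SREBF2 turned with upper-quartile scaling (-0.024) and the stricter filter (-0.0044), and ranged from -0.047 to 0.087 with single libraries left out (main value 0.02). Over the same fits SREBF1 ranged from -0.39 to 0.30, SCAP from -0.061 to 0.15 and INSIG2 from -0.19 to 0.43. Without both later replicate 1 libraries SREBF1 was at 0.45 and SCAP at -0.12. Precision is limited by 2 libraries a group, and for ABCA1 by 3 to 47 counts a library.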

Other observations

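Genes that store and burn fatty acids were described by the same means, from lists chosen for the pathway. Of 24 tested genes of fatty acid oxidation, 14 were higher and 10 lower at the later times (median log2 fold change 0.07), with 4 higher and 0 lower at an unadjusted p under 0.05, beside 6.94% and 7.24% of all genes. HADH, the mitochondrial short-chain dehydrogenase of beta-oxidation, stood at 78.4 and 85.3 CPM in control, 81.2 and 76.6 at 24 h, 157 and 120.2 at 3 days, and 166 and 127 at 7 days (0.83 ± 0.16 SE, edgeR adjusted p = 0.149). All 4 later libraries lay above all 4 earlier ones. ACAA2, the mitochondrial thiolase of the same cycle, stood at 27.0 ± 3.37 CPM in the earlier and 42.3 ± 12.7 in the later libraries (SD, n = 4), with overlapping values.

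Of 20 tested genes of glycerolipid synthesis and lipid droplets, 10 were higher and 10 lower (median 0.00). At an unadjusted p under 0.05 in edgeR, 2 were higher and 1 lower, beside 6.94% and 7.24% of all genes. The later libraries lay wholly above the earlier ones for 2 and wholly below for 1, beside 5.93% and 7.43%. MGLL, monoglyceride lipase, stood at 76.6 and 69.3 CPM in control, 65.2 and 69.7 at 24 h, 42.4 and 51.6 at 3 days, and 45.1 and 49.6 at 7 days (-0.57 ± 0.15 SE, edgeR adjusted p = 0.233). AGPAT2, an acyltransferase that makes phosphatidic acid, was at 2.24 ± 0.07 CPM in the earlier and 4.17 ± 1.04 in the later libraries, without overlap. None of these genes passed after adjustment over all genes.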
